A study of Homo sapiens with 10 samples.

Results

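The chemokines CXCL1, CXCL2, CXCL3, CXCL5, CXCL6 and CXCL8 were followed in 12Z, an immortalized and established human cell line of epithelial origin from peritoneal endometriosis. They were taken by symbol from the table of gene counts, and all 6 were found among its 62750 gene IDs. All 6 also passed the filter on low counts, together with 15740 genes in all. The labels give 5 groups of 2 samples. The vehicle group received DMSO and no IL1β. The other groups received 10 ng/ml IL1β, either after DMSO or after an inhibitor, which was CDD-2728 at 1 µM or at 10 µM, or CDD-3013 at 1 µM. The submitters describe both compounds as inhibitors of the kinase JNK. Cells of every group had been grown in 10% serum and starved overnight in 2% charcoal-stripped serum, the pre-treatment lasted 30 min and the treatment 6 h. No group received an inhibitor without IL1β. All samples are of 1 cell line, and no label says whether samples of the same group came from different cultures, so p-values measure only the spread between these samples, which may be technical.

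These chemokines are small secreted proteins that carry a glutamate-leucine-arginine motif before the CXC cysteines. Between them, though not each of them both, they bind the receptors CXCR1 and CXCR2 on neutrophils and guide these cells out of the blood into inflamed tissue. IL1β, an inflammatory cytokine, acts through the receptor IL1R1, which activates NF-κB and the MAP kinases JNK and p38. NF-κB enters the nucleus and binds the promoters of these genes, JNK phosphorylates JUN, a subunit of the factor AP-1, and AU-rich elements make the chemokine messages short-lived. In endometriosis, peritoneal lesions are inflamed, and CXCL8, also called IL-8, has been described at raised levels in peritoneal fluid.

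The 6 genes lie in 1 cluster on chromosome 4 (GENCODE 29, GRCh38). CXCL8 spans 73740506 to 73743716, CXCL6 73836497 to 73849064 and CXCL1 73869393 to 73871242, all on the plus strand. On the minus strand, CXCL5 spans 73995642 to 73998779, CXCL3 74036589 to 74038807 and CXCL2 74097035 to 74099293. The RefSeq promoter table of GRCh38.p14 (250 bases before to 50 after the start of transcription) held all 6. The NF-κB letters GGAATTTCC, searched on both strands, were found in all 6 windows, against 0.464% of 34943 promoters. Only this 1 exact form was searched, and some of the windows are alike in sequence, so the 6 matches are not independent of one another. Each match is given in capitals with the bases around it, read 5′ to 3′ on the gene's strand, because it is the element that all 6 windows share.
CXCL8, chr4:73740468-73740496: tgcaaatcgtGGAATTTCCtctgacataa
CXCL6, chr4:73836579-73836607: ctgagttcagGGAATTTCCccagcatccc
CXCL5, chr4:73998749-73998777: atgagttcagGGAATTTCCccagcatccc
CXCL1, chr4:73869305-73869333: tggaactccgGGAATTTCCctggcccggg
CXCL2, chr4:74099254-74099282: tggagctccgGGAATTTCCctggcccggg
CXCL3, chr4:74038749-74038777: tggagctccgGGAATTTCCctggcccggc

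Counted from the RefSeq start, the first base of the match lay at position -91 in CXCL8, -90 in CXCL5 and -89 in CXCL6. It lay at -78 in CXCL1 and CXCL3 and at -77 in CXCL2. The GENCODE spans given above begin further upstream for every gene but CXCL1. The matches of CXCL2, CXCL3, CXCL5 and CXCL6 lie inside these spans. The matches of CXCL1 and CXCL8 lie before the gene in both annotations. The flanks fell into 3 kinds, that of CXCL8, that of CXCL5 with CXCL6, and that of CXCL1, CXCL2 and CXCL3. Over the part of the window before the start of transcription, CXCL5 and CXCL6 were 85.3% identical and CXCL1 and CXCL3 81.4%. There CXCL8 was 40.5% to 45% identical to the others. The coding sequences followed the same grouping, with 93.5% identity between CXCL1 and CXCL2, 94.4% between CXCL2 and CXCL3 and 87.4% between CXCL5 and CXCL6. The coding sequence of CXCL8 was 48.6% to 54.1% identical to the others.

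The AP-1 letters TGANTCA, the same on both strands, were found in the window of CXCL8 and in no other of the 6, against 7.72% of all promoters. Windows with both the NF-κB and the AP-1 letters made up 0.0487% of promoters, or 17 of 34943. The GC box GGGCGG, searched on both strands, was found in CXCL1, CXCL3 and CXCL6 (44.9% of promoters), and the CRE letters TGACGTCA in none of the 6 (1.84% of promoters). None of these matches overlapped another. A match is a description of letters and not a measured binding site. The upstream sequences of CXCL8 and CXCL1 are shown because they contrast a window with both motifs and one with no AP-1 letters, with the NF-κB and AP-1 letters in capitals. They end before the first base of the gene in GENCODE 29.
CXCL8, chr4:73740319-73740505: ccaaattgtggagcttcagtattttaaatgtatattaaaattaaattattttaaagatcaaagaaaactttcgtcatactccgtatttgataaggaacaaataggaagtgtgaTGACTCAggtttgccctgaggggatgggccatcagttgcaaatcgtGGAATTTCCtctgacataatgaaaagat
CXCL1, chr4:73869143-73869392: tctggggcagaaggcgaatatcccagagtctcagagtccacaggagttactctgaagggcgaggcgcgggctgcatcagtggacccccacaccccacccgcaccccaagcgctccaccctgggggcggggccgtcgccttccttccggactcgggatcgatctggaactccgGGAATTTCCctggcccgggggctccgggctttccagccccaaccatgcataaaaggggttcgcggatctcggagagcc

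**Figure D1:**
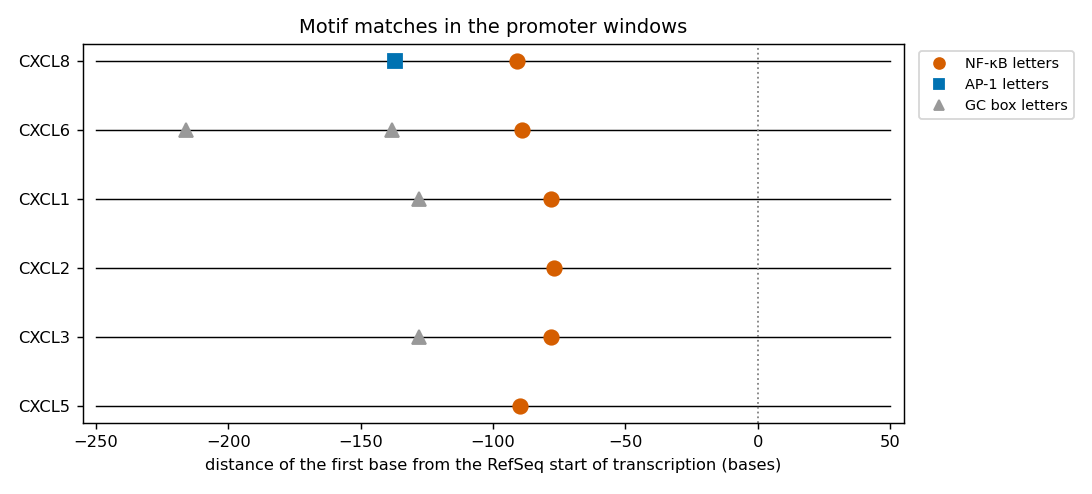
Positions of motif matches in the RefSeq promoter windows of the 6 genes, with the distance in bases from the start of transcription on the x axis and 1 line per gene. The NF-κB matches (circles) start at positions -91 to -77, the AP-1 match (square) of CXCL8 starts at -137, and GC boxes (triangles) lie in CXCL1, CXCL3 and CXCL6.

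Libraries held 16312600 to 19479416 counts. Levels are CPM, counts scaled to the library size with TMM factors, as mean ± SD with n = 2, and log2 fold changes carry ± SE. Differences were tested with the quasi-likelihood test of edgeR over 15740 genes, with a Benjamini-Hochberg adjusted p under 0.05 as the threshold for a call. The cells carried the keratins KRT8 (mean 6770 CPM over the 10 libraries), KRT18 (2050 CPM) and KRT19 (1120 CPM), while the epithelial adhesion genes EPCAM (0.0729 CPM) and CDH1 (9.73 CPM) were low. The collagen COL1A1 (2800 CPM) and the mesothelial gene LRRN4 (464 CPM) were the most abundant of the stromal and mesothelial markers listed. Other stromal markers ranged from 22.5 CPM (COL1A2) to 535 CPM (VIM), and other mesothelial ones from 23.7 CPM (UPK3B) to 167 CPM (CALB2). Of 12 leukocyte markers, 10 had a mean under 1 CPM. Among them FCGR3B, MPO, S100A12 and CD3E had 0 counts in all 10 libraries, where up to 3 counts over all libraries cannot be told from 0. CD14 (18.9 CPM) and ITGAM (2.7 CPM) were the leukocyte markers above 1 CPM. CXCR1 had 0 counts in the 10 libraries together, CXCR2 had 6, and the chemokine scavenger ACKR1 had 59, and none of 5 listed receptors and scavengers had enough counts to be tested.

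The comparison of IL1β with vehicle asked how far these chemokine messages responded to the cytokine. All 6 rose, and CXCL1 and CXCL8 had ranks 4 and 5 from the top among the log2 changes of all tested genes. Of all tested genes 17.6% were called higher, and 66.7% had groups that did not overlap, as the 6 chemokines did. The median log2 change of the 6 was 7.06, or 6.25 with CXCL5 at its lower bound, and that of all tested genes was -0.01. In bulk RNA, fewer cells of a type and less RNA per cell cannot be told apart.

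CXCL8, the main human neutrophil attractant of the family, was at 2.12 and 1.74 CPM in the vehicle libraries and at 1005 and 914.6 CPM with IL1β. The groups did not overlap, and the rise of 8.95 ± 0.26 on the log2 scale (493-fold) had an adjusted p of 2.34e-13 in edgeR. CXCL1, the attractant first described as a melanoma growth factor, was at 0.88 and 1.89 CPM in vehicle and at 739.9 and 699.3 CPM with IL1β. Its log2 change was 9.04 ± 0.21 (526-fold, adjusted p = 1.62e-22 in edgeR). CXCL6, which binds both CXCR1 and CXCR2, had the highest vehicle level of the 6, at 15.0 and 17.6 CPM. With IL1β it reached 923.3 and 876.8 CPM, a log2 change of 5.79 ± 0.10 (55.3-fold, adjusted p = 1.01e-22 in edgeR). Its fold change was smaller than those of CXCL1 and CXCL8, from a higher level in vehicle.

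CXCL2, a CXCR2 ligand close to CXCL1 in sequence, was at 1.43 and 0.77 CPM in vehicle and at 111.7 and 121.1 CPM with IL1β (log2 change 6.70 ± 0.23, 104-fold, adjusted p = 4.84e-21 in edgeR). CXCL3, the closest relative of CXCL2, went from 0.65 and 0.20 CPM to 12.4 and 11.9 CPM (log2 change 4.78 ± 0.36, 27.5-fold, adjusted p = 2.51e-13 in edgeR). CXCL5, a CXCR2 ligand made by many epithelial cells, had 0 counts in both vehicle libraries and 22 and 19 counts (1.23 and 1.19 CPM) with IL1β. With 3 counts over the group as the floor, 0.0728 CPM, it was at least 16.7-fold higher with IL1β (adjusted p = 5.79e-06 in edgeR). Floors cover counting error only. In none of these 3 genes did the vehicle and IL1β libraries overlap. CXCL5, at 0 counts in vehicle, could pass the filter on low counts only through groups with IL1β. CXCL3, with 14 and 4 counts in vehicle, could not have passed it on the vehicle libraries alone. The calls of CXCL3 and CXCL5 against vehicle are therefore not independent of the filter.

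Reads of near-identical copies may have been split or dropped, since the handling of reads with several matches is not given in the sources used here. In GENCODE 29, 12.5% of the 50-base stretches of CXCL2 transcripts, 6.01% of those of CXCL3 and 4.81% of those of CXCL1 also occurred in another of the 6 genes, so the levels of these 3 are uncertain, by an amount that was not tested. No stretch of CXCL5, CXCL6 or CXCL8 occurred in another of the 6. CXCL6 (2.16%) and CXCL5 (1.12%) shared some with other genes, and CXCL8 shared none.

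Each inhibitor arm still held all 6 chemokines above vehicle (shares of all genes called higher 18.3%, 18.2% and 26.0% for 1 µM CDD-2728, 10 µM CDD-2728 and CDD-3013). These comparisons share the vehicle libraries with that of IL1β. CXCL8, the gene with the lowest level in the arms relative to IL1β alone, was still 349-fold, 196-fold and 295-fold above vehicle in that order of arms. CXCL5 was at least 29.2-fold, 14.7-fold and 18.5-fold higher than vehicle in the same order, with 72, 38 and 44 counts over each pair of libraries.

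**Figure D2:**
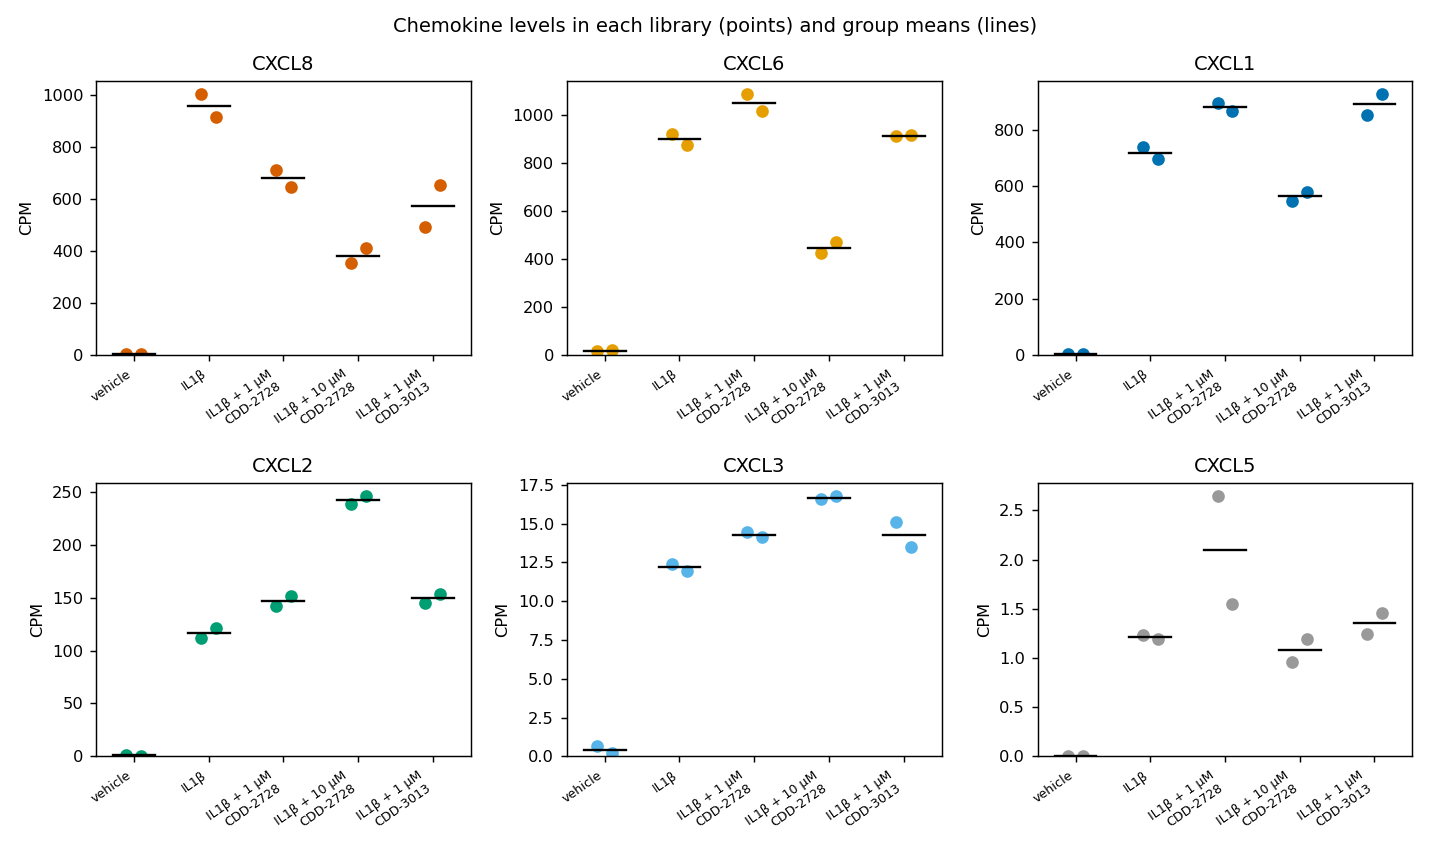
Levels of the 6 chemokines in CPM (y axis, linear and with its own range in each panel) in the 10 libraries (points) and the group means (lines). CXCL8 fell from 960 CPM with IL1β to 382 CPM with 10 µM CDD-2728 added, whereas CXCL2 rose from 116 to 242 CPM in the same arm.

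The 3 inhibitor arms were compared with IL1β alone to ask what each compound did to the induced messages. These 3 comparisons share the IL1β libraries, so each arm's values are given side by side and are not counted as support for one another. At 1 µM CDD-2728, CXCL1 and CXCL2 were called higher, CXCL8 was called lower and the other 3 were not called, where 2.03% of all genes (319) were called higher and 2.57% (404) lower. Without single libraries of this comparison 96 to 854 genes were called higher and 128 to 632 lower, fewest without the first IL1β library and most without the second CDD-2728 library. With 10 µM CDD-2728, CXCL2 and CXCL3 were higher and CXCL1, CXCL6 and CXCL8 lower, and CXCL5 alone of the 6 was not called (15.6% of all genes called higher and 15.9% lower). CDD-3013 at 1 µM left CXCL1 and CXCL2 higher and CXCL8 lower, with 3 not called (19.0% of all genes called higher and 17.3% lower). Libraries did not overlap those of IL1β alone for 6, 5 and 5 of the chemokines in that order of arms, against 47.9%, 67.8% and 67.8% of all genes. The median log2 change of the 6 was 0.26 with 1 µM CDD-2728, -0.26 with 10 µM CDD-2728 and 0.19 with CDD-3013, against 0.00, 0.01 and -0.01 over all tested genes.

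CXCL8 was lower than with IL1β alone in all 3 arms. Its libraries held 712.2 and 647.2 CPM with 1 µM CDD-2728, 352.8 and 411.4 CPM with 10 µM CDD-2728, and 491.4 and 655.9 CPM with CDD-3013. None of these overlapped the IL1β libraries (1005 and 914.6 CPM), and the CDD-3013 libraries lay furthest apart. The mean level was 70.8% of that with IL1β alone at 1 µM CDD-2728, a log2 change of -0.50 ± 0.12 (adjusted p = 0.0285 in edgeR). At 10 µM CDD-2728 it was 39.8% (log2 change -1.33 ± 0.12, adjusted p = 2.17e-06 in edgeR), and with CDD-3013 59.8% (log2 change -0.74 ± 0.12, adjusted p = 0.000301 in edgeR). The call at 1 µM CDD-2728 was lost when any 1 of the 4 libraries compared was left out (adjusted p 0.0504 to 0.239 in edgeR) and in DESeq2 (adjusted p = 0.0795), with log2 changes of -0.57 to -0.42.

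CXCL6 fell at the higher dose of CDD-2728, where its libraries held 423.5 and 470.2 CPM against 923.3 and 876.8 CPM with IL1β alone. This was 49.6% of the IL1β level (log2 change -1.01 ± 0.08, adjusted p = 4.85e-10 in edgeR). With 1 µM CDD-2728 its libraries held 1089 and 1016 CPM (log2 change 0.23 ± 0.08, adjusted p = 0.0812 in edgeR). That value passed the threshold in DESeq2 (adjusted p = 0.0358), in edgeR with no filter on low counts (adjusted p = 0.0109) and without the second 1 µM CDD-2728 library (adjusted p = 0.0266 in edgeR). CXCL6 under CDD-3013 was at 912.0 and 917.9 CPM, within the range of the IL1β libraries, and its log2 difference of 0.02 had a 95% interval of -0.15 to 0.19.

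CXCL1 moved in opposite directions at the 2 doses of CDD-2728. It was at 898.0 and 867.9 CPM with 1 µM and at 548.3 and 579.6 CPM with 10 µM, above and below the IL1β libraries at 739.9 and 699.3 CPM, without overlap. The log2 change from IL1β alone was 0.30 ± 0.08 at 1 µM (adjusted p = 0.0399 in edgeR) and -0.35 ± 0.08 at 10 µM (adjusted p = 0.00221 in edgeR). With CDD-3013 it was at 856.0 and 929.1 CPM (log2 change 0.31 ± 0.08, adjusted p = 0.00495 in edgeR). The rise at 1 µM CDD-2728 was no longer called without the first IL1β library (adjusted p = 0.17 in edgeR), the second IL1β library (0.3) or the first CDD-2728 library (0.167). The rise with CDD-3013 was no longer called without the second IL1β library (adjusted p = 0.0711 in edgeR) or the second CDD-3013 library (0.0518).

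CXCL2 rose in all 3 arms and most at 10 µM CDD-2728. Its libraries held 238.2 and 246.3 CPM there, 2.08-fold the level with IL1β alone (111.7 and 121.1 CPM), with a log2 change of 1.06 ± 0.08 (adjusted p = 4.28e-10 in edgeR). With 1 µM CDD-2728 it was at 141.7 and 152.0 CPM (log2 change 0.34 ± 0.08, adjusted p = 0.0112 in edgeR), a call lost without the first IL1β library (adjusted p = 0.247 in edgeR). With CDD-3013 it was at 145.1 and 153.7 CPM (log2 change 0.36 ± 0.08, adjusted p = 0.000837 in edgeR). No inhibitor library of CXCL2 overlapped the IL1β libraries.

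CXCL3 was at 16.6 and 16.8 CPM with 10 µM CDD-2728 against 12.4 and 11.9 CPM with IL1β alone, a log2 change of 0.45 ± 0.14 (adjusted p = 0.0165 in edgeR). This call was lost when any 1 of the 4 libraries was left out (adjusted p 0.0663 to 0.102 in edgeR). In the arms at 1 µM it was at 14.4 and 14.2 CPM with CDD-2728 and at 15.1 and 13.5 CPM with CDD-3013, and neither value passed the test (adjusted p 0.421 and 0.228 in edgeR). CXCL5 had 47 and 25 counts with 1 µM CDD-2728, 18 and 20 with 10 µM CDD-2728 and 21 and 23 with CDD-3013. Its 95% intervals of the log2 difference from IL1β alone were 0.00 to 1.59, -1.03 to 0.69 and -0.69 to 0.99 (adjusted p 0.269, 0.79 and 0.806 in edgeR).

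**Figure D3:**
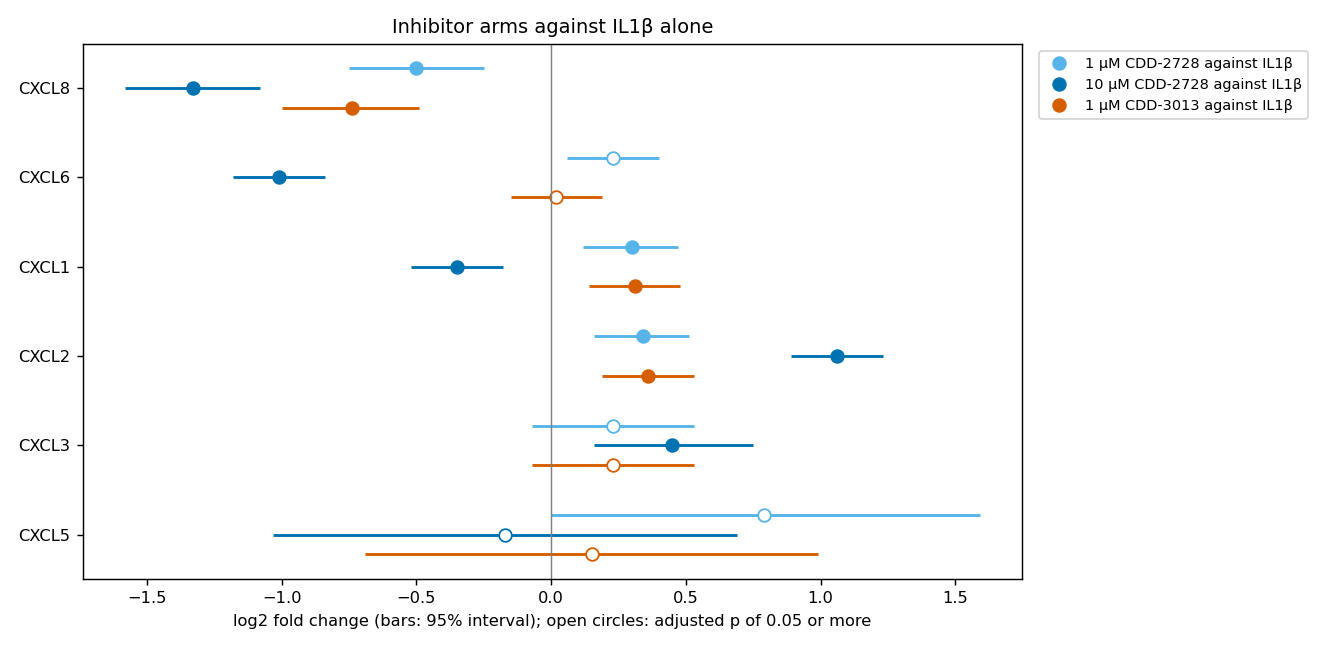
Log2 fold change of each chemokine (x axis) in the 3 inhibitor arms against IL1β alone, with 95% intervals as bars, filled circles for an adjusted p under 0.05 and open circles otherwise. At 10 µM CDD-2728 the 6 genes spread from -1.33 for CXCL8 to 1.06 for CXCL2.

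The summed levels of some marker lists differed from those with IL1β alone in some of the arms. Their counts called stand against shares of all genes. These were 15.6% higher and 15.9% lower with 10 µM CDD-2728, and 19.0% and 17.3% with CDD-3013. The summed level of 8 epithelial markers was 12300 to 13500 CPM with CDD-3013 against 9020 to 9130 CPM with IL1β alone. In the CDD-3013 arm 4 of the 7 tested were called higher and 1 lower, the latter near the share of all genes. With 10 µM CDD-2728 the 8 stromal markers summed to 3300 to 3450 CPM against 4420 to 4480 CPM with IL1β alone. Of these 8, 3 were called higher and 2 lower, and their median log2 change was 0.14, opposite to the sum. The 5 endothelial markers summed to 53.6 to 60.8 CPM against 22.8 to 23.7 CPM, with 1 called higher, near the share of all genes. The 5 mesothelial markers summed to 944 to 958 CPM with CDD-3013 against 769 to 770 CPM with IL1β alone. Of these, 4 were called higher and 1 lower, the latter near the share of all genes. No marker of the mesothelial or stromal list was under 1 CPM, and 2 of the endothelial list were (PECAM1 and VWF). The sums are weighted to the most abundant gene of each list. Over the 10 libraries that was KRT8 (mean 6770 CPM, epithelial), COL1A1 (2800 CPM, stromal), LRRN4 (464 CPM, mesothelial) and KDR (28.2 CPM, endothelial). The 12 leukocyte markers, whose defining neutrophil genes are named above at or near 0, summed to 16.5 to 18.4 CPM in vehicle, 20.5 to 22.7 CPM with IL1β and 18.4 to 28 CPM in the arms. The part of these shifts in the chemokine results was not tested.

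The dose comparison within CDD-2728 set 10 µM directly against 1 µM. Its fold changes do not rest on the levels in the libraries of IL1β alone, though the spread was fitted over all libraries together. CXCL1, CXCL6 and CXCL8 were lower at the higher dose and CXCL2 was higher (13.8% of all genes called lower and 13.3% higher). CXCL6 differed most, by -1.24 ± 0.08 on the log2 scale (adjusted p = 7.05e-11 in edgeR), and its level at 10 µM was 0.424 times that at 1 µM. CXCL8 differed by -0.83 ± 0.12 (adjusted p = 0.000214 in edgeR) and CXCL1 by -0.65 ± 0.08 (adjusted p = 5.9e-06 in edgeR). CXCL2 differed by 0.72 ± 0.08 in the other direction (adjusted p = 3.28e-07 in edgeR). CXCL3 (0.22 ± 0.14, adjusted p = 0.248 in edgeR) and CXCL5 (-0.97 ± 0.39, adjusted p = 0.064 in edgeR) did not pass the test. CXCL5 was called lower at 10 µM when the second 1 µM library was left out (adjusted p = 0.0248 in edgeR). For all 6 genes the libraries of the doses did not overlap, as was so for 61.2% of all genes.

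CDD-3013 and CDD-2728 could be compared at a matched dose of 1 µM and a matched time, as 1 pair of compounds. No chemokine of the 6 was called in edgeR, where 17.9% of all genes were (1550 higher and 1261 lower). That background rests on single libraries, with 318 higher and 338 lower without the second CDD-2728 library, 501 and 450 without the second CDD-3013 library, and 815 lower without the first CDD-3013 library. The unadjusted value of 1 of them, CXCL6, was under 0.05 in the edgeR fit (0.0107). DESeq2 called 1, again CXCL6 (adjusted p = 0.0302). CXCL6 was lower with CDD-3013 by -0.20 ± 0.08 on the log2 scale (95% interval -0.37 to -0.03, adjusted p = 0.0567 in edgeR). CXCL8 was at 59.8% of its IL1β level with CDD-3013 and at 70.8% with CDD-2728. The difference of -0.25 ± 0.12 had an interval of -0.50 to 0.01 (adjusted p = 0.175 in edgeR). With length and GC trends as offsets in the fit, this difference was -0.08 (adjusted p = 0.766 in edgeR). It was called without the second CDD-3013 library (log2 difference -0.46, adjusted p = 0.0167 in edgeR). The intervals of CXCL1 (-0.15 to 0.19), CXCL2 (-0.15 to 0.20) and CXCL3 (-0.29 to 0.29) bound any difference between the compounds to that size on the log2 scale. That of CXCL5 was wide, at -1.42 to 0.14. Of the 6 genes, 2 had libraries that did not overlap between the compounds, against 55.5% of all genes.

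Because the 6 messages moved apart, their mixture differed between groups. Genes are compared per length here, as CPM per kb of annotated exon. In vehicle, CXCL6 made up 70.6% and 74.0% of the summed CPM per kb of the 6 in the 2 libraries. With IL1β, CXCL1 was at 555 ± 22.2 CPM per kb, CXCL8 at 422 ± 28.2 and CXCL6 at 412 ± 15.1, and CXCL8 and CXCL6 did not differ beyond their spread. CXCL2 followed at 77.6 ± 4.43, CXCL3 at 5.49 ± 0.156 and CXCL5 at 0.478 ± 0.0105 CPM per kb. In all 3 arms CXCL1 stood first and CXCL6 second. CXCL8 and then CXCL2 followed, and at 10 µM CDD-2728 these did not differ beyond their spread (168 ± 18.2 and 161 ± 3.79 CPM per kb). In vehicle, CXCL1 (1.07 ± 0.554), CXCL8 (0.849 ± 0.12) and CXCL2 (0.733 ± 0.313 CPM per kb) did not differ beyond their spread either.

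CXCL2 made up 4.91% and 5.64% of the summed CPM per kb with IL1β and 16.9% and 16.2% with 10 µM CDD-2728. CXCL8 went the other way, from 29.2% and 28.1% to 16.5% and 17.8%. The ratio of CXCL8 to CXCL2 counts within a library, which does not depend on the scaling of libraries, was 9.0 and 7.55 with IL1β. It was 5.03 and 4.26 with 1 µM CDD-2728, 3.39 and 4.27 with CDD-3013 and 1.48 and 1.67 with 10 µM CDD-2728. The ratio of CXCL1 to CXCL2 counts was 6.63 and 5.78 with IL1β. It was 6.34 and 5.71 with 1 µM CDD-2728 and 5.90 and 6.04 with CDD-3013, which overlapped the IL1β libraries, and 2.30 and 2.35 with 10 µM CDD-2728, which did not. The counts of the 6 genes together were 0.275% and 0.256% of all counts with IL1β, 0.275% and 0.265% with 1 µM CDD-2728, 0.162% and 0.175% with 10 µM, 0.227% and 0.245% with CDD-3013, and 0.00223% and 0.00244% in vehicle.

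**Figure D4:**
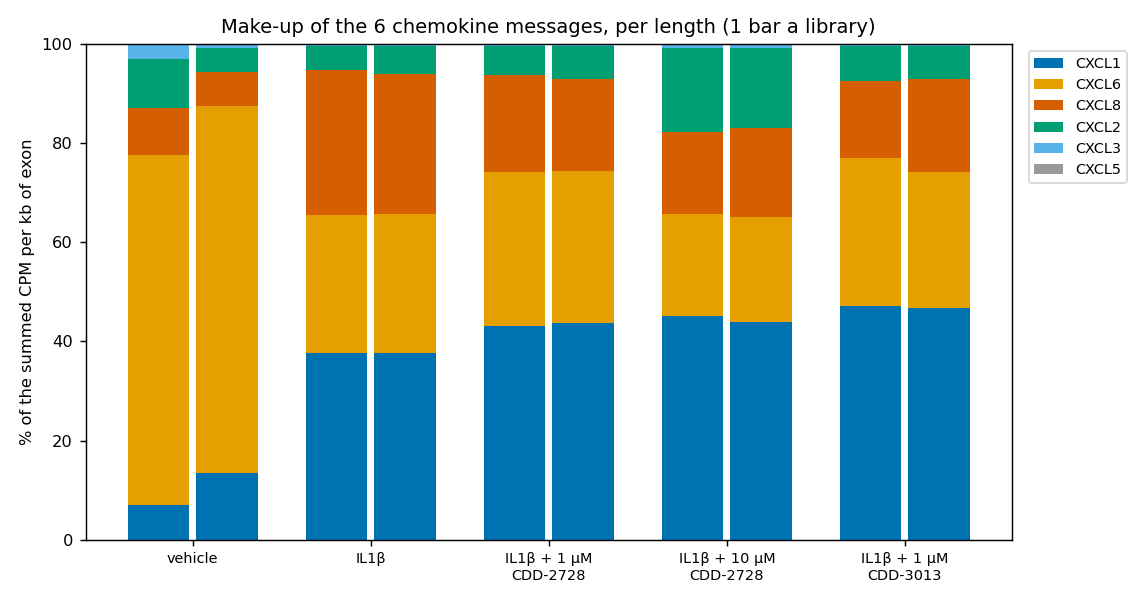
Share of each chemokine in the summed CPM per kb of exon of the 6 genes (y axis, percent), with 1 bar per library and 2 bars per group. CXCL6 holds 70.6% and 74.0% in vehicle, CXCL1 holds the largest part in all groups with IL1β, and CXCL2 is widest at 10 µM CDD-2728 with 16.9% and 16.2%.

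Genes of the pathway above the chemokines were taken from lists. Their counts stand against shares of all genes of 17.6% called higher and 15.0% lower with IL1β, 2.03% and 2.57% with 1 µM CDD-2728, 15.6% and 15.9% with 10 µM, and 19.0% and 17.3% with CDD-3013. Of 28 genes from the IL1 receptor to NF-κB, 27 were tested. IL1β raised 21 and lowered 1, 1 µM CDD-2728 raised 3 and lowered none relative to IL1β alone, 10 µM CDD-2728 raised 9 and lowered 6, and CDD-3013 raised 10 and lowered 5. The counts lowered at 10 µM and with CDD-3013 are near those shares of all genes (15.9% and 17.3%). The list's median log2 change was 0.70 with IL1β and 0.02, 0.11 and 0.05 in the 3 arms. IL1R1, the signalling receptor of IL1β, rose with IL1β (log2 change 2.95 ± 0.09, adjusted p = 1.26e-18 in edgeR) and again in all 3 arms, by 0.49, 0.28 and 0.36 in the order 1 µM CDD-2728, 10 µM CDD-2728 and CDD-3013 (adjusted p 0.000114, 0.0044 and 0.000457 in edgeR). TNFAIP3, an NF-κB target that ends the signal, was at 655.8 CPM with IL1β and at 651.0, 606.8 and 589.9 CPM in the arms, and none of these differences passed the test (adjusted p 0.96, 0.25 and 0.103 in edgeR). NFKBIA, the inhibitor that holds NF-κB in the cytoplasm and is itself a target, rose by 0.71 ± 0.08 on the log2 scale at 10 µM CDD-2728 (adjusted p = 1.85e-07 in edgeR). With CDD-3013 it rose by 0.24 ± 0.08 (adjusted p = 0.0185 in edgeR), and at 1 µM CDD-2728 it was not called (0.701). NFKBIZ, a nuclear cofactor of NF-κB, rose at 10 µM CDD-2728, by 0.38 ± 0.08 (adjusted p = 0.000284 in edgeR). RELA, the transactivating subunit, fell by 0.23 at that dose (adjusted p = 0.0161 in edgeR), while NFKB1, which encodes the p50 precursor, rose by 0.31 (adjusted p = 0.000846 in edgeR).

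Of 14 AP-1 and C/EBP factors, 12 were tested. IL1β raised 10 of them and lowered none. Relative to IL1β alone, 2 rose and 3 fell at 1 µM CDD-2728, 6 rose and 2 fell at 10 µM, and 5 rose and 4 fell with CDD-3013. The share of all genes called was 2.03% higher and 2.57% lower, 15.6% and 15.9%, and 19.0% and 17.3% in the same order, and the 2 of 12 that fell at 10 µM are near it. The list's median log2 change was 1.29 with IL1β and -0.14, 0.16 and -0.01 in the arms. JUN, the AP-1 subunit phosphorylated by JNK and an activator of its own gene, was at 316.4 CPM with IL1β and at 166.9, 81.6 and 128.0 CPM in the 3 arms. Its log2 changes of -0.92, -1.96 and -1.31 had adjusted p of 1.37e-08, 3.88e-15 and 2.23e-11 in edgeR. FOSL1, a FOS-related partner of JUN, did not pass the test in any arm (adjusted p 0.15, 0.409 and 0.161 in edgeR). CEBPB and CEBPD, C/EBP factors of the acute-phase response, rose in all 3 arms. At 10 µM CDD-2728, CEBPB rose by 0.92 ± 0.08 and CEBPD by 1.34 ± 0.11 on the log2 scale (adjusted p 2.98e-09 and 3.32e-07 in edgeR).

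All 14 genes listed for the decay of AU-rich messages and the p38 pathway were tested. IL1β raised 8 and lowered 2, and relative to IL1β alone 1 rose and 1 fell at 1 µM CDD-2728, 2 rose and 5 fell at 10 µM, and 4 rose and 5 fell with CDD-3013. The 2 of 14 lowered by IL1β are near the 15.0% of all genes called lower. The 2 of 14 that rose at 10 µM are near the 15.6% called higher. The other counts stand against 17.6% higher with IL1β, 2.03% higher and 2.57% lower at 1 µM, 15.9% lower at 10 µM, and 19.0% higher and 17.3% lower with CDD-3013. The list's medians were 0.33 with IL1β and -0.02, -0.10 and -0.01 in the arms. ZFP36, which binds AU-rich elements and speeds decay, was at 10.7 CPM with IL1β and 28.2 CPM with 10 µM CDD-2728 (log2 change 1.40 ± 0.13, adjusted p = 3.36e-08 in edgeR). With CDD-3013 it rose by 0.43 ± 0.14 (adjusted p = 0.0213 in edgeR), and at 1 µM CDD-2728 it was not called (0.331). ZC3H12A, a ribonuclease that cuts inflammatory messages, rose in all 3 arms, by 0.27 ± 0.08, 0.66 ± 0.08 and 0.49 ± 0.08 (adjusted p 0.0365, 4.18e-07 and 3.41e-05 in edgeR). DUSP1, a phosphatase that inactivates p38 and JNK, fell in all 3 arms, by 0.69, 0.42 and 0.78 on the log2 scale (adjusted p 0.00142, 0.00762 and 8.22e-05 in edgeR).

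**Figure D5:**
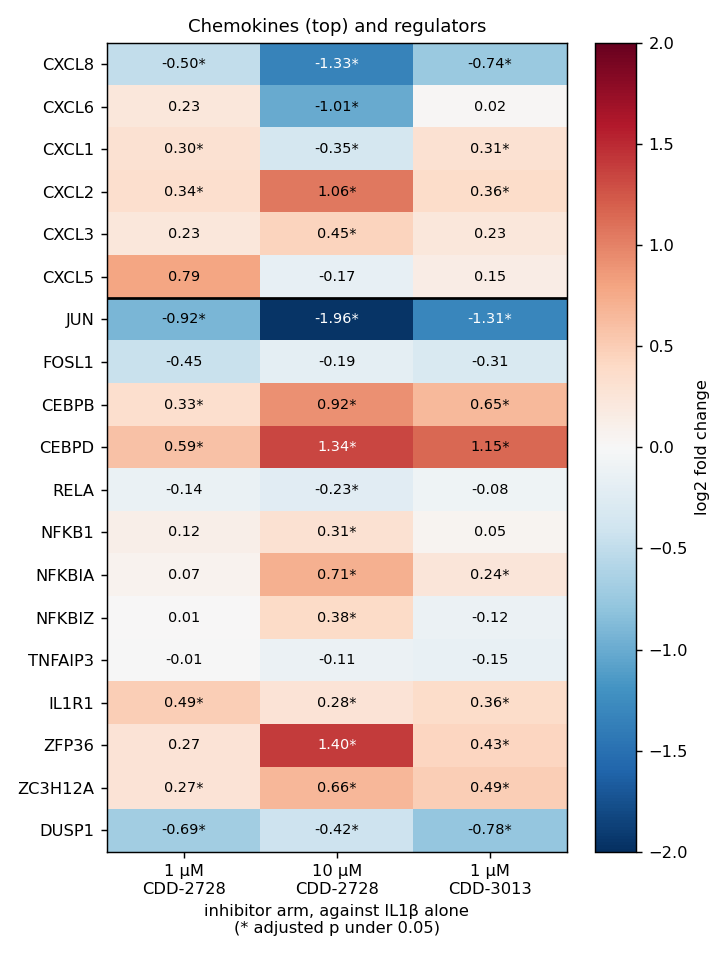
Log2 fold changes of the 6 chemokines (above the line) and of 13 regulators (below it) in the 3 inhibitor arms against IL1β alone, as colour and number, with an asterisk for an adjusted p under 0.05. CXCL8, JUN and DUSP1 are called lower in every arm. CXCL2, CEBPB, CEBPD, IL1R1 and ZC3H12A are called higher in every arm, and CXCL5, TNFAIP3 and FOSL1 pass the test in none.

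Other genes that serve neutrophil entry were raised by IL1β as well. Of 15 on the list, 11 were tested, 9 rose and none fell with IL1β, where 17.6% of all genes were called higher and 15.0% lower. Relative to IL1β alone, 5 rose and none fell at 1 µM CDD-2728, 5 rose and 1 fell at 10 µM, and 6 rose and none fell with CDD-3013, where 2.03%, 15.6% and 19.0% of all genes were called higher. Their median log2 change was 3.71 with IL1β and 0.19, 0.39 and 0.31 in the arms. ICAM1, the adhesion molecule that neutrophil integrins bind, was at 518.0 CPM with IL1β and 796.9 CPM with 10 µM CDD-2728 (log2 change 0.62 ± 0.08, adjusted p = 1.1e-07 in edgeR). With CDD-3013 it rose by 0.20 ± 0.08 (adjusted p = 0.0164 in edgeR), and at 1 µM CDD-2728 it was not called (0.396). IL6 rose in all 3 arms, by 0.46, 0.39 and 0.31 (adjusted p 0.00117, 0.000856 and 0.0047 in edgeR), whereas CSF3, the growth factor of neutrophils, passed the test in none (adjusted p 0.305, 0.0603 and 0.14 in edgeR). SELE, a selectin of activated endothelium, had 15 counts in the 10 libraries together and was not tested.

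Of 11 other CXC chemokines, 5 were tested, of which 3 rose and none fell with IL1β (median log2 change 1.35), where 17.6% of all genes were called higher. In the arms 1, 1 and 4 of them rose and none fell (2.03%, 15.6% and 19.0% of all genes called higher), with medians of 0.20, 0.15 and 0.96. CXCL10, an attractant of T cells, rose above the IL1β level in all 3 arms, by 1.27, 0.60 and 1.39 on the log2 scale (adjusted p 3.97e-06, 0.00221 and 2.92e-07 in edgeR). CXCL16, a membrane-bound chemokine, rose with CDD-3013 (0.48 ± 0.13, adjusted p = 0.00181 in edgeR), and its values at 1 and 10 µM CDD-2728, 0.20 and -0.09, did not pass the test (adjusted p 0.389 and 0.62 in edgeR). Of 10 genes that bind or process chemokines, 7 were tested, and 4 rose and 1 fell with IL1β (median log2 change 1.22). The 1 that fell is near the 15.0% of all genes called lower with IL1β. In the arms 1, 2 and 2 rose and 1, 3 and 1 fell, with medians of -0.09, -0.12 and 0.04. With CDD-3013 these counts are near the 19.0% and 17.3% of all genes called higher and lower, and those at 1 and 10 µM CDD-2728 stand against 2.03% and 2.57% and against 15.6% and 15.9%. TNFAIP6, a secreted protein that binds CXCL8, was at 20.2 CPM with IL1β and at 31.5, 30.5 and 33.3 CPM in the arms, and all 3 rises passed the test (adjusted p 0.00273, 0.000871 and 0.000126 in edgeR).

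Most genes beside the cluster were too low to be tested. Of 12 neighbouring genes, 1 had enough counts, MTHFD2L, a mitochondrial folate enzyme, and it was not called with IL1β (log2 change 0.23 ± 0.25, adjusted p = 0.519 in edgeR) or in any arm. The platelet chemokines PPBP and PF4 had 0 counts in the 10 libraries together, and the EGF receptor ligands EREG and AREG had 1 and 15.

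The genes with the pattern most like each chemokine were found by the root-mean-square difference over 4 log2 changes, IL1β against vehicle and the 3 arms against IL1β, among 11965 genes with at least 2 CPM in their highest group. The 3 genes nearest to CXCL2 were PTGS2 (0.29), TNFAIP6 (0.38) and CCL2 (0.43). CXCL6 was nearest to C15orf48 (0.27), CCL7 (0.40) and TRPA1 (0.55), and CXCL3 to PRDM1 (0.22), IL1B (0.23) and IL1A (0.24). CXCL1 was nearest to IL6 (0.39), CSF3 (0.58) and CXCL8 (0.82). At 10 µM CDD-2728, however, IL6 was called higher (log2 change 0.39) and CXCL1 lower (log2 change -0.35). CXCL8 had no neighbour as near, its first being CXCL1 (0.82), then CSF3 (1.11) and IL6 (1.13). The distance includes the change with IL1β, in which CXCL8 had rank 5 from the top, so few genes had a change as large. For CXCL5 the nearest were CCL2 (0.51), TNFAIP6 (0.52) and ELF3 (0.56), and this ranking rests on a fitted change from a group at 0 counts, which depends on the prior count. Within the family, over the 3 arms alone, CXCL8 and CXCL2 lay furthest apart (1.59).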

How the data were processed

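Poly(A)-enriched RNA of 10 samples was sequenced. The authors deposited raw counts, integers for each gene ID in each library, which entered every fit unchanged. The tools were STAR, featureCounts and fastp with build hg38, per the submitters' processing notes. Versions and settings, such as strand and multiple matches, were not given in the sources used here. Of the 62750 gene IDs, 61918 matched a table of symbols with their version, 754 without it and 78 did not match.

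Genes passed filterByExpr by group at a minimum count of 10, were scaled with TMM and fitted with the quasi-likelihood method of edgeR 4.0.16 in R 4.3.3, over all 10 libraries with 1 coefficient per group. The Benjamini-Hochberg adjustment ran over 15740 genes with a threshold of 0.05. SEs are Wald values from the fitted variance, not below counting error. There were 9 comparisons. Replicate counts differed by more than counting error (chi-square per degree of freedom 2.55 to 7.61), and log2 CPM correlated at 0.9901 to 0.9925 between replicates. Lengths came from GENCODE 29 and promoters from RefSeq (GRCh38.p14).

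The 6 chemokines, the 13 other gene lists and the genes named from them were chosen with earlier results of these data known. Named are the 6, fixed genes of each list, and the 3 genes most like each chemokine. Alternatives were relative log expression, library totals, no filter, a stricter one (2 or more libraries with a CPM of 5 or more), DESeq2 1.42.0, only the 4 libraries compared, length and GC trends as offsets (loess, span 0.3, 2 rounds), a replicate block, leaving out each library, and for the order per length the longest transcript or 1 library.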

Additional observations from a re-analysis of the deposited data

How the results depend on the processing

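Of 54 results, each 1 chemokine in 1 comparison, 41 kept their direction and their side of the threshold under every alternative that gave a value. Of 691 alternative values, 641 kept both, 17 lost the call, 11 gained it and 22 changed sign. All of the last were uncalled values near 0. Adjusted p-values below are from edgeR unless DESeq2 is named. The range over leaving out each library is of log2 changes, and a library left alone in its group is assumed to vary like the others.

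With 1 µM CDD-2728 against IL1β alone, leaving out libraries gave 0.26 to 0.34 for CXCL1, 0.28 to 0.40 for CXCL2, 0.18 to 0.29 for CXCL6 and -0.57 to -0.42 for CXCL8, with 0 to 3 chemokines called higher (2 with all libraries) and 0 to 0 called lower (1 with all libraries). CXCL6 gained the call with no filter (0.24) and in DESeq2 (0.23), and CXCL8 lost it in DESeq2 (-0.49), which left 0 called lower. With 10 µM CDD-2728, CXCL3 ranged from 0.43 to 0.48 and the count called higher was 1 to 1 (2 with all libraries). With CDD-3013, CXCL1 ranged from 0.27 to 0.38 and CXCL6 from -0.01 to 0.07, with 1 to 2 called higher. CXCL6 was -0.06 with library totals and -0.02 with length and GC offsets, with or without the replicate block. Between the doses, CXCL5 ranged from -1.31 to -0.52.

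Between the compounds, leaving out libraries gave -0.04 to 0.08 for CXCL1, -0.02 to 0.07 for CXCL2, -0.08 to 0.08 for CXCL3 and -0.46 to -0.05 for CXCL8, with 0 to 1 called lower. Library totals gave -0.05 (CXCL1), -0.04 (CXCL2), -0.07 (CXCL3), -0.27 (CXCL6, called, adjusted p = 0.0102) and -0.31 (CXCL8, called, adjusted p = 0.0444), so 2 called lower. No filter also gave 2, CXCL6 (-0.19, adjusted p = 0.0378) and CXCL8 (-0.23, adjusted p = 0.0114). The stricter filter gave 1, CXCL6 (-0.21, adjusted p = 0.041), with CXCL3 at -0.01, and DESeq2 gave 1, CXCL6 (-0.20). Length and GC offsets, with or without the replicate block, gave -0.03 (CXCL1), -0.04 (CXCL2) and -0.12 (CXCL3), and only the 4 libraries -0.01 (CXCL3). The cause of these changes was not tested.

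No pairing of samples by replicate number was seen, since the correlations of same-numbered deviations were -0.114 to 0.0548. These values cannot show whether same-numbered samples were handled together. With the replicate block, CXCL1 at 1 µM CDD-2728 was 0.29 (adjusted p = 0.0648), or 0.24 with length and GC offsets too (adjusted p = 0.0582), so that 1 chemokine was called higher under either. CXCL3 between the compounds was 0.00 with its sign changed, and the block changed no other call.

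In the order per length, 4 of 6 ranks held in the first vehicle library alone (CXCL1 and CXCL2 exchanged) and 4 in the first 10 µM CDD-2728 library alone (CXCL2 and CXCL8 exchanged). Library totals moved the median of all genes by -0.18 in IL1β against vehicle and by up to -0.29 in an arm against vehicle, and no call of the 6 against vehicle was lost. The stricter filter removed CXCL5, and DESeq2 gave CXCL5 no adjusted p at 1 µM CDD-2728 against IL1β or between the compounds. In 1 µM CDD-2728 against IL1β, 319 genes were called higher and 404 lower, against 96 to 854 and 128 to 632 without single libraries and 551 higher with no filter. Between the compounds, leaving out libraries gave 318 to 1882 higher and 338 to 1425 lower. With library totals, 1623 genes were called higher and 4730 lower in IL1β against vehicle (2769 and 2360 with TMM), 1543 and 5176 in 1 µM CDD-2728 (2873 and 2605), 2107 and 4125 in 10 µM CDD-2728 (2870 and 2586), 2148 and 6595 in CDD-3013 (4087 and 3685), all against vehicle, then 3082 and 1911 in 10 µM CDD-2728 (2454 and 2504) and 2285 and 3548 in CDD-3013 (2994 and 2729) against IL1β, 2826 and 1389 between the doses (2093 and 2169) and 1034 and 1965 between the compounds (1550 and 1261). DESeq2 called 1535 lower in IL1β and 1693 in 1 µM CDD-2728 against vehicle, and 1317 higher between the doses (2093). Between the compounds, the 1550 higher and 1261 lower became 557 and 242 with length and GC offsets, 426 and 183 with the block too, and 945 higher came from only the 4 libraries. Offsets with the block left 1811 lower in CDD-3013 against IL1β (2729). CXCL5, with 18 to 47 counts per library under IL1β, is limited by depth.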
